A study of Mus musculus with 4 samples.

Results

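The replication-dependent histone gene clusters of the mouse were examined as 133 of the 57090 ATAC-seq peaks of the series. A peak was a member if it overlapped chr13:21700000-24000000, chr3:96130000-96200000 or chr11:58830000-58870000 of GRCm39. The chromosome 13 interval held 109 peaks, the chromosome 3 interval 15 and the chromosome 11 interval 9. Peaks over 1000 bp, called long peaks below, were described apart from shorter ones, and the 3 intervals held 32, 3 and 2 of them. The chromosome 13 interval was chosen because its long peaks had lower counts in mandible than in femur in these same libraries, so its values from that contrast are a description without a test. The chromosome 3 and chromosome 11 intervals were named as a check on chromosome 13, in the same libraries and with results of these data known.

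ATAC-seq uses a transposase that cuts open DNA and leaves adapters at the cut, so a peak marks accessible chromatin. The 4 libraries came from untreated monocytes of the femur and mandible marrow of C57Bl/6J mice aged 2 mo, labelled CD11b+ and male, although the paper's methods give mice of both sexes. No allele or treatment distinguished the groups. Each library was made from 20000 cells of 4 pooled mice, isolated by depleting other cells, and femur and mandible replicate 1 formed batch A and both replicates 2 formed batch B, each batch from 1 pool of mice. The 2 values per site are therefore 2 pools, not single mice. Total counts in peaks were 27464565 to 75294068 per library. Femur replicate 2, the deepest library, was the lowest at 32.4% of all long and 32.7% of all shorter peaks. Femur replicate 1 was the highest at 28 of the 32 long peaks of chromosome 13. The main results are therefore also given without either of them. Marker genes of monocytes and of other marrow cells were not analysed here, and in a bulk sample fewer cells of a type and less accessibility per cell cannot be told apart.

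Replication-dependent histone genes encode the linker histone H1 and the core histones H2A, H2B, H3 and H4 that package newly made DNA, and most are transcribed in S phase. They lie in arrays, are controlled with the help of the cofactor NPAT in a nuclear compartment called the histone locus body, and their mRNAs end in a conserved stem-loop in place of a poly(A) tail. Monocytes leave the cell cycle as they mature, whereas their marrow precursors divide.

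RefSeq lists 69 genes with histone cluster names on these chromosomes of GRCm38.p6, 66 protein coding and 3 pseudogenes. On chromosome 13 there are 56, namely 6 of H1, 15 of H2A, 15 of H2B, 9 of H3 and 11 of H4. Chromosome 3 has 10, with 4 of H2A, 2 of H2B, 3 of H3 and 1 of H4, and chromosome 11 has 3, of H2A and H2B. The genes on chromosome 13 are not contiguous. Olfactory receptor genes and the genes Zfp184, Pom121l2 and Prss16 lie beside or between them, an array of Vmn1r vomeronasal receptor genes separates a first group of histone genes from a second, and the iron-regulating gene Hfe and the transporter genes of the Slc17a family lie in or next to the second. No GRCm39 gene models were used here, hence no peak was assigned to a gene, and the label of the clusters could not be checked from the counts. Some of the 133 peaks may therefore belong to these neighbours.

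The stem-loop shows what sets these transcripts apart. In the GENCODE transcripts of these genes, a perfect stem of 6 base pairs beginning with GG around a loop of 4 bases was found within the last 150 bases in 22 of the 68 genes with a transcript, and many of the models may end before the site. The 22 genes shared 5 sequences. The 2 most frequent are shown, with the stem in capitals and the loop in lower case. The first occurred in 13 genes of H2A, H2B and H3 on chromosomes 13 and 3, and the second in 4 genes of H4 on chromosome 13.
Stem-loop of H2ac19 and 12 further genes: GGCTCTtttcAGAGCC
Stem-loop of H4c17 and 3 further genes: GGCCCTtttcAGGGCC
These 2 forms differed in the stem and had the same loop. The search itself required T or C and then T at the start of the loop, so the loop was partly fixed in advance. Among the less frequent forms, 1 in 3 genes of H2B and H3 and 1 in an H2A gene had other loops. A further form, in 1 gene of H4, had another stem. The share of all transcripts with such a stem-loop is not given here.

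Promoters are shown because histone gene promoters carry compact arrays of the same elements. RefSeq promoters, from 250 bases before to 50 after the start, matched 61 of the 69 genes with 62 sequences. CCAAT was found on either strand in 54 of the 62 (87.1%), against 37.4% of all 32851 promoters of this length. TATAAA was found in 35 (56.5%), against 13.6% of all. The octamer ATTTGCAT, bound by OCT1 in the H2B genes, was found in 14 (22.6%), against 1.74% of all. It occurred in 7 of 18 promoters of H2A and 7 of 17 of H2B and in none of H1, H3 or H4. H4 promoters held CCAAT in 3 of 11, whereas each promoter of the other classes held it. No motif contains another. In 10 pairs an H2A and an H2B gene stood back to back, and their promoters shared 220 to 279 bases, so both members of such a pair count the same motif. The following 4 promoters, 1 for H1, 1 that H2A and H2B share, 1 for H3 and 1 for H4, have these motifs in capitals. Within each class the promoter with the most of the 3 motifs was taken, so they need not be typical of their class. Their positions are of GRCm38.p6 and cannot be compared with the positions of the peaks.
H1f5 (chr13:21780576-21780875, minus strand): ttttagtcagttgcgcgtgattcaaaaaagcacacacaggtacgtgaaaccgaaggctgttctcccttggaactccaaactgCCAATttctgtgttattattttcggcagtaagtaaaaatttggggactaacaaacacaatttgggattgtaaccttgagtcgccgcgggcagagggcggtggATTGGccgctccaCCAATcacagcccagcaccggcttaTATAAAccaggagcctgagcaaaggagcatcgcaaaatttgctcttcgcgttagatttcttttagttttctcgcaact
H2ac12 (chr13:22035594-22035893, minus strand): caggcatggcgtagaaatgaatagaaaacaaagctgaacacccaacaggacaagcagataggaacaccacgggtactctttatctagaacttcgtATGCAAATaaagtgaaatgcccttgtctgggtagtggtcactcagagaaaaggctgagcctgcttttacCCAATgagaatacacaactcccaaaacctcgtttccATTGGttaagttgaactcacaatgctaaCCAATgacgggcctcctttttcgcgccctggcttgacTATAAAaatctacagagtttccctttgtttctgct
H3c10 (chr13:21717378-21717677, plus strand): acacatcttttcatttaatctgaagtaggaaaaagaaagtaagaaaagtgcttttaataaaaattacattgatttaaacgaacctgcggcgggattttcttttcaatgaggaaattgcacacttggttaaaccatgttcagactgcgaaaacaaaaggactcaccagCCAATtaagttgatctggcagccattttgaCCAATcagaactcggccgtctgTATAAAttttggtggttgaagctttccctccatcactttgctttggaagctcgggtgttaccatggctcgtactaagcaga
H4c4 (chr13:23581318-23581617, plus strand): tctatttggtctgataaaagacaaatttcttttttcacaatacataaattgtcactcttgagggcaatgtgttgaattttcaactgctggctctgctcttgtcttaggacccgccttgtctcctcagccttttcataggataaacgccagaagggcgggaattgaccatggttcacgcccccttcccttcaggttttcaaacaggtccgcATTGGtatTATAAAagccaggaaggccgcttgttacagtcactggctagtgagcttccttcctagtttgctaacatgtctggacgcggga
The H2ac12 window, which overlaps that of H2bc12 on the other strand, carries the octamer beside CCAAT boxes, and the H4c4 window holds a single CCAAT box next to TATAAA.

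Accessible sites in the chromosome 13 interval were arranged in 2 blocks. No peak lay between 22235641 and 23552898, a stretch of 1.32 Mb and the widest gap of the interval. The left block held 43 peaks, 14 of them long, and the right block 66, 18 of them long. The long peaks of the interval covered 69.3 kb and the shorter ones 33.1 kb, and the longest peak had 6835 bp. The smaller intervals were more densely filled, with 21.4 peaks per 100 kb on chromosome 3 and 22.5 on chromosome 11, against 4.74 on chromosome 13.

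The long peaks of the chromosome 13 interval were lower in mandible than in femur. Values per peak are loess-normalized CPM, read counts scaled by library depth, in which a smooth curve removes the dependence of each library on mean count. Differences are log2 fold changes of mandible against femur from edgeR's quasi-likelihood fit across all 57090 peaks. The median CPM of the 32 long peaks was 87.7 and 75.6 in femur replicates 1 and 2, and 62.3 and 61.7 in mandible replicates 1 and 2. Both medians of femur lay above both of mandible, and the mandible libraries were almost level. Of the 32 peaks, 30 were lower in mandible, and the log2 fold changes had a median of -0.29, quartiles of -0.41 and -0.13 and a range of -0.75 to 0.43. Over all 8541 long peaks the median was -0.0026 and 50.9% were lower in mandible.

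The groups did not overlap, with both femur libraries above both mandible libraries, in 19 of the 32 peaks (59.4%), where 10.3% of all long peaks had this order. The count of peaks with an unadjusted p under 0.05 and lower values in mandible was 16, where the share of all long peaks was 0.644%. With Benjamini-Hochberg adjustment 1 of the 32, Peak_13956, passed 0.05 in the edgeR fit, where 4 of all 8541 long peaks passed in either direction. These 4 were the only calls among all 57090 peaks (0.00701%), and all 4 were among the 210 peaks of more than 3000 bp. Since the interval was chosen on this contrast, these counts are not evidence of its direction. Of the 55 long peaks in the genome that were lower in mandible at an unadjusted p under 0.05, 16 lay in the chromosome 13 interval and 2 in that of chromosome 3. Together these made up 32.7% of the 55, while the 3 intervals held 0.433% of all long peaks. Most of them lay in the interval chosen on this contrast, so this share is not evidence either.

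**Figure D1:**
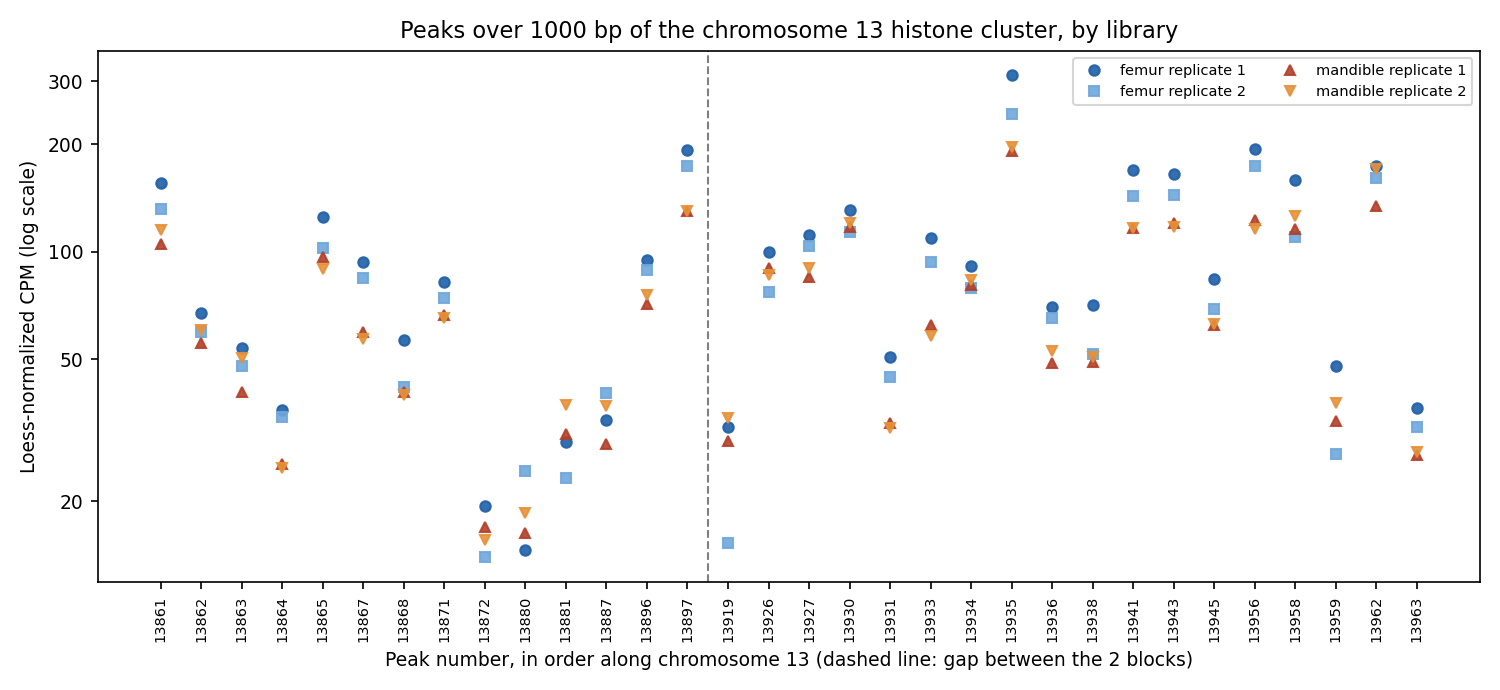
Loess-normalized CPM (log scale) of the 32 peaks over 1000 bp of the chromosome 13 interval, in order along the chromosome, with 1 symbol per library and a dashed line at the gap between the blocks. Femur replicate 1 is the highest library in 28 of the 32 peaks, and both mandible libraries lie below both femur libraries in 19.

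The peaks with the largest changes lay in both blocks. Peak_13933, chr13:23739046-23740915 with 1870 bp, had the largest. Its CPM was 109 and 93.6 in femur replicates 1 and 2 and 62.5 and 58.0 in mandible, a log2 fold change of -0.75 (SE 0.12). Peak_13956, chr13:23922096-23925147 with 3052 bp, had 194 and 174 in femur and 123 and 116 in mandible, a log2 fold change of -0.62 (SE 0.092). In both peaks the gap between the sites was wider than the spread within either. In the left block, Peak_13867, chr13:21962908-21964942 with 2035 bp, had 93.7 and 84.2 in femur and 59.5 and 57.2 in mandible, a log2 fold change of -0.61 (SE 0.12). Peak_13931, chr13:23734811-23736149 with 1339 bp, had 50.7 and 44.6 in femur and 33.1 and 32.1 in mandible, a log2 fold change of -0.55 (SE 0.15). The 4 peaks differed by similar amounts in the 2 batches, from -0.81 to -0.62 in batch A and from -0.69 to -0.47 in batch B. Peak_13935, named by the same rule and described next, was less even, at -0.71 (A) and -0.30 (B). The rule took only peaks whose change had the same sign in both batches, so agreement in sign was built in.

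The widest and most strongly counted peak was Peak_13935, chr13:23754307-23761141. Its CPM was 313 and 242 in femur and 192 and 197 in mandible, a log2 fold change of -0.52 (SE 0.098). The femur libraries differed from each other by more than the mandible libraries, and both lay above them. Peak_13897, chr13:22224536-22228775, lies near the inner edge of the left block and had 193 and 174 in femur and 130 and 130 in mandible. Peak_13941, chr13:23804686-23806689, had 169 and 143 in femur and 117 and 117 in mandible. In both, the mandible libraries were level and the femur libraries separate from them, with log2 fold changes of -0.49 (SE 0.090) and -0.42 (SE 0.099). Without femur replicate 1, Peak_13935 was at -0.30 and Peak_13941 at -0.28.

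The other peaks with high counts were less uniform. Peak_13861, chr13:21898968-21903247, had a log2 fold change of -0.38 (SE 0.10), Peak_13943, chr13:23865823-23870189, of -0.38 (SE 0.097) and Peak_13865, chr13:21937080-21939216, of -0.29 (SE 0.11), and in all 3 the groups did not overlap. Without femur replicate 1, Peak_13861 was at -0.24 and Peak_13865 at -0.12. Peak_13958, chr13:23928372-23931626, had 159 and 110 in femur and 116 and 126 in mandible. Its groups overlapped, because femur replicate 2 was its lowest library. Peak_13962, chr13:23944063-23946887, had 174 and 161 in femur and 134 and 171 in mandible. Peak_13930, chr13:23726526-23729310, had 131 and 113 in femur and 117 and 120 in mandible. The groups overlapped in these 2 peaks as well, and the log2 fold changes of the 3 were between -0.15 and -0.04, with SEs of 0.10 to 0.13. Their values rested on single libraries. Peak_13958 was at -0.40 without femur replicate 2 and 0.15 without femur replicate 1. Peak_13930 was at -0.14 and 0.08, in the same order, and Peak_13962 at 0.03 without mandible replicate 1.

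Only 2 of the 32 long peaks were higher in mandible. Peak_13881, chr13:22158165-22159508, had 29.4 and 23.2 in femur and 30.8 and 37.1 in mandible, a log2 fold change of 0.37 (SE 0.18). Peak_13919, chr13:23701050-23702657, had 32.2 and 15.3 in femur and 29.5 and 34.1 in mandible, a log2 fold change of 0.43 (SE 0.25). In Peak_13881 both mandible libraries lay above both of femur. In Peak_13919 the groups overlapped, femur replicate 2 was low, and in batch A the log2 difference was -0.13. Without femur replicate 2 the log2 fold change was -0.03 for Peak_13919, no longer higher in mandible, and 0.20 for Peak_13881. Without femur replicate 1 they were 1.07 and 0.55. Both were among the weaker long peaks, and the chromosome 13 long peaks ranged from 15.3 to 70.4 CPM per kb.

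Both blocks showed the difference. The median log2 fold change was -0.27 over the 14 long peaks of the left block, 13 of them lower in mandible, and -0.29 over the 18 of the right block, 17 of them lower. By length, the median was -0.25 over 13 peaks of up to 1500 bp, -0.17 over 6 of up to 2000 bp, -0.30 over 7 of up to 3000 bp and -0.44 over 6 of more than 3000 bp. Single libraries moved these medians, that of the peaks of up to 1500 bp to -0.04 without femur replicate 1 and -0.42 without femur replicate 2. For those of up to 2000 bp it went to -0.03 without mandible replicate 1 and -0.34 without mandible replicate 2, and for those of more than 3000 bp to -0.28 without femur replicate 1. Over all 210 peaks of more than 3000 bp in the genome the median was 0.0041, and it was also near 0 in the other length classes. Across the 32 peaks the log2 fold change correlated with length at Pearson's r = -0.33 and Spearman's rho = -0.38, given as a description of peaks that share libraries. Per length, the level of the long peaks was close to that of long peaks in general. Their median was 36.7 CPM per kb, against 38.2 over all long peaks, with 45.0 and 38.5 for femur replicates 1 and 2 and 31.3 and 32.2 for those of mandible.

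At the length limit, the long peaks just inside it had small differences. Peak_13880 (1064 bp) and Peak_13872 (1075 bp) had log2 fold changes of -0.17 and -0.04, which went to 0.27 and -0.26 without femur replicate 2 and to -0.49 and 0.23 without femur replicate 1. Just under the limit Peak_13873 (997 bp) and Peak_13899 (970 bp) had -0.29 and -0.04.

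**Figure D2:**
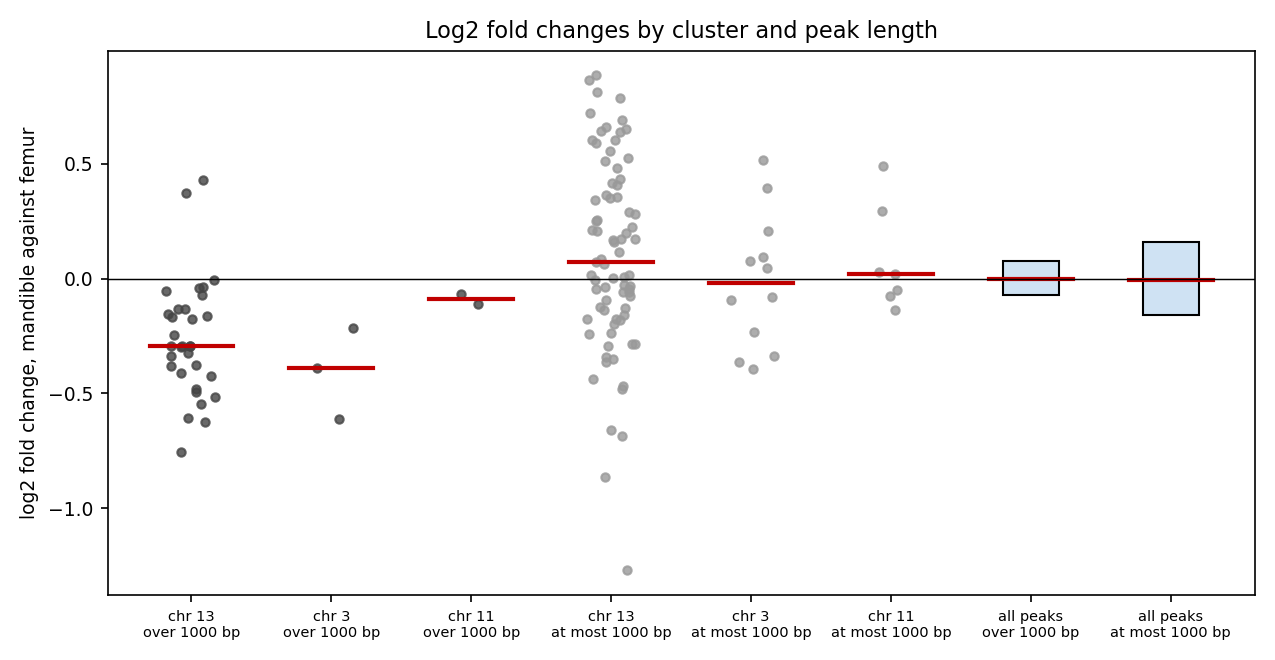
Log2 fold change of mandible against femur for each peak, by interval and peak length, with red bars at the medians. For all peaks of the series the boxes span the quartiles. The medians are -0.29 for the long peaks of chromosome 13, -0.39 for those of chromosome 3 and -0.09 for those of chromosome 11, and lie near 0 for all peaks of either length.

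Batch A and batch B each compared both sites within 1 pool of mice. In batch A, 30 of the 32 long peaks of chromosome 13 were lower in mandible, with a median of -0.44. In batch B, 21 of 32 were lower, with a median of -0.19. The size of the difference therefore depended on the batch, while 20 of the 32 peaks (62.5%) were lower in both, where 19.7% of all long peaks were. The 2 batches make up the contrast on which the interval was chosen, so this count is not evidence of its direction. Across the 32 peaks the differences of the 2 batches had Pearson's r = 0.57 and Spearman's rho = 0.66, against -0.17 and -0.29 across all long peaks, a description of peaks that share the same libraries and normalization.

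**Figure D3:**
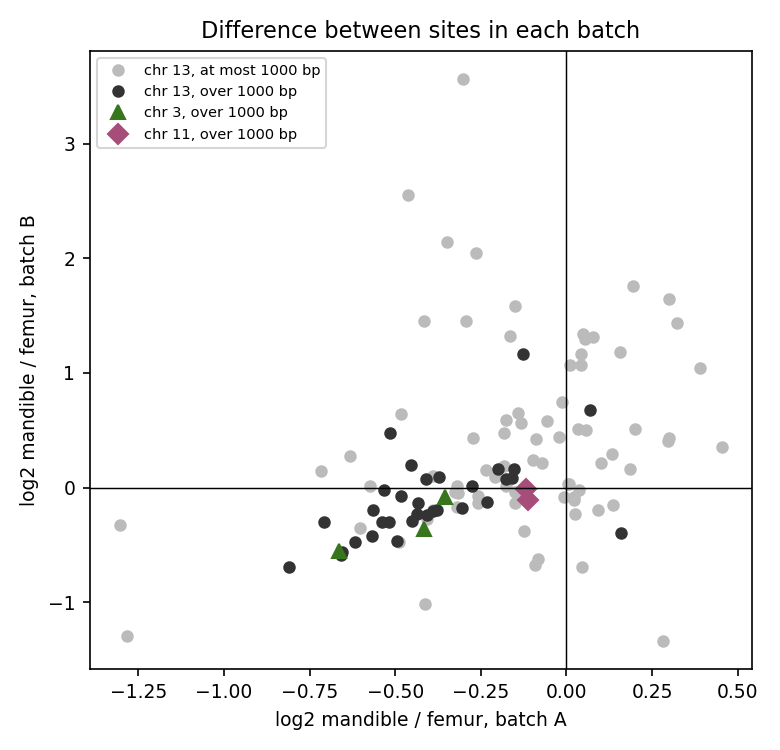
Log2 difference of mandible against femur in batch A (x axis) and batch B (y axis), 1 point per peak of the 3 intervals, without the shorter peaks of chromosomes 3 and 11. Of the 32 long peaks of chromosome 13, 20 lie at the lower left, lower in mandible in both batches, with all 5 long peaks of chromosomes 3 and 11. Of all long peaks, 19.7% were lower in both.

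Within these peaks the femur libraries differed from each other more than the mandible libraries did. Femur replicate 1 lay above femur replicate 2 in 30 of the 32 long peaks, where it did so in 3912 of all 8541. It was the highest of the 4 libraries in 28 (87.5%), where this was so in 17.1% of all long peaks. The median absolute log2 difference between the femur libraries was 0.22 in these peaks and 0.16 over all long peaks, and between the mandible libraries it was 0.082 and 0.11. Without femur replicate 1 the median log2 fold change of the 32 was -0.19, with 24 lower in mandible. Without femur replicate 2 it was -0.42, with 30 lower.

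Before normalization, the 32 long peaks took 0.312% of the counts in peaks of femur replicate 1 (exact 95% interval 0.311% to 0.314%), 0.254% of femur replicate 2 (0.253% to 0.255%), 0.243% of mandible replicate 1 (0.241% to 0.245%) and 0.244% of mandible replicate 2 (0.242% to 0.246%). The intervals cover counting error only. On this scale femur replicate 1 stood apart, and femur replicate 2 lay just above the mandible libraries. All long peaks together took 56.1% and 54.5% in femur and 58.8% and 58.2% in mandible, the opposite order. After loess normalization, the summed CPM of the 32 peaks was 2927 ± 338 (SD, n = 2) in femur against 2351 ± 63.6 (SD, n = 2) in mandible. The log2 difference was -0.31, and within the batches it was -0.46 (A) and -0.17 (B).

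The chromosome 3 cluster, with genes of H2A, H2B, H3 and H4, gave lower values in mandible at its long peaks. Peak_34978, chr3:96175420-96177791, had a CPM of 119 and 116 in femur replicates 1 and 2 and 88.8 and 90.1 in mandible. Its log2 fold change was -0.39 (SE 0.10, edgeR adjusted p = 1.0). Peak_34977, chr3:96169480-96171584, had 114 and 109 in femur and 89.3 and 102 in mandible, a log2 fold change of -0.22 (SE 0.11, edgeR adjusted p = 1.0), or -0.12 without mandible replicate 1.

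The third and weakest, Peak_34969, chr3:96144929-96146024, had 15.3 and 12.9 in femur and 9.64 and 8.78 in mandible. Its log2 fold change was -0.61 (SE 0.22, edgeR adjusted p = 1.0). None of the 3 passed the threshold after adjustment over all peaks. In all 3 the groups did not overlap, the share of all long peaks being 10.3%. Each of the 3 was lower in mandible in both batches, as were 19.7% of all long peaks. The medians of the 3 were -0.42 in batch A and -0.37 in batch B. For Peak_34978 and Peak_34969 the unadjusted p was under 0.05, where 0.644% of all long peaks were so with lower values in mandible. With TMM and DESeq2 scaling the log2 fold changes were -0.19 and -0.18 for Peak_34978 and -0.63 and -0.62 for Peak_34969. Only Peak_34969 then stayed under an unadjusted 0.05. Peak_34977 was at -0.015 with TMM and -0.0053 with DESeq2. The summed CPM of the 3 peaks was 243 ± 7.39 (SD, n = 2) in femur against 195 ± 9.64 (SD, n = 2) in mandible, a log2 difference of -0.32 with a two-sided exact permutation p = 0.33, the smallest that 2 libraries against 2 can give.

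A long peak just outside the chromosome 3 interval had a similar difference. Peak_34966, chr3:96126402-96129384, had 141 and 136 in femur and 102 and 111 in mandible, a log2 fold change of -0.38 (SE 0.097). Peak_34982, the first peak after the interval at chr3:96200572-96201637, had 0.00021 (SE 0.21). At the limits of the chromosome 13 interval, the last peak before it (Peak_13856) and the first after it (Peak_13966) had 0.09 and 0.08. The first and last inside (Peak_13857 and Peak_13965) had -0.06 and 0.06.

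The chromosome 11 cluster, the smallest, showed no difference that passed the test. Peak_8397, chr11:58844599-58846248, had 70.5 and 69.5 in femur and 65.2 and 64.4 in mandible, a log2 fold change of -0.11 (SE 0.12, edgeR adjusted p = 1.0). Peak_8401, chr11:58868078-58869752, had 29.6 and 27.8 in femur and 27.2 and 27.5 in mandible, with -0.07 (SE 0.17, edgeR adjusted p = 1.0). Both femur libraries lay above both mandible libraries in either peak, where 10.3% of all long peaks had this order, but the distance was small. The sign of both turned positive with TMM and DESeq2 scaling, at 0.05 and 0.0025 with TMM and 0.06 and 0.01 with DESeq2.

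The shorter peaks of chromosome 13 had no uniform direction. Of the 77, 33 were lower and 44 higher in mandible, with a median log2 fold change of 0.07, against -0.0053 over all 48549 peaks of at most 1000 bp. The median CPM was 7.36 and 5.53 in femur and 6.38 and 7.86 in mandible, so the libraries of the sites overlapped. At an unadjusted p under 0.05, 3 were lower and 7 higher, where 1.18% and 1.63% of all shorter peaks were. Both femur libraries lay above both mandible libraries in 13 (16.9%), where 14.4% of all shorter peaks had this order, and the reverse order held in 21 (27.3%), where 13.6% did. The batches disagreed, the median being -0.10 in A and 0.22 in B. Femur replicate 2 was the lowest library in 37 of the 77 (48.1%), against 32.7% of all shorter peaks. Without femur replicate 2 the median was 0.01, with 36 lower. It was 0.19 without femur replicate 1 and 0.15 without mandible replicate 1. With library size alone the sign turned, to a median of -0.05 with 44 of the 77 lower. The zero had moved as well, since all shorter peaks then had a median of -0.16, with 35883 of 48549 lower.

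The 5 shorter peaks with the highest counts had log2 fold changes between -0.34 and 0.20. Peak_13961, chr13:23940768-23941579, had 38.0 and 36.2 in femur and 28.7 and 29.9 in mandible, a log2 fold change of -0.34 (SE 0.15), with no overlap. Peak_13906, chr13:23616541-23617375, had 43.8 and 33.7 in femur and 43.2 and 45.7 in mandible, a log2 fold change of 0.20 (SE 0.16), with the groups overlapping, and 0.02 without femur replicate 2. Peak_13899, Peak_13900 and Peak_13902 had -0.04, -0.04 and 0.17. The most negative log2 fold change of a shorter peak, in Peak_13870 at chr13:21970156-21970696, which was chosen after its values were seen, was -1.27 (SE 0.32), from 8.74 and 5.15 in femur to 3.59 and 2.11 in mandible, and -0.81 without femur replicate 1.

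The shorter peaks next to long ones depended on which femur library was used. The 11 shorter peaks within 1000 bp of a long peak had a median log2 fold change of 0.41, at -0.42 in batch A and 1.04 in batch B. Their median was -0.18 without femur replicate 2 and 1.03 without femur replicate 1. The 66 farther away had a median of 0.07. Peak_13942, chr13:23806969-23807086, named after its values were seen, lies next to the long Peak_13941. Its CPM was 2.63 and 0.252 in femur and 2.14 and 2.98 in mandible. Only femur replicate 2 was low there, with 20 counts, although it is the deepest library.

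On chromosome 3, 6 of the 12 shorter peaks were lower in mandible, with a median of -0.02 and none at an unadjusted edgeR p under 0.05. The median was -0.17 with library size alone and also without femur replicate 2. Over all shorter peaks the median was -0.16 with library size alone and 0.0056 without femur replicate 2. Both femur libraries lay above both mandible libraries in 5 of the 12 (41.7%), where 14.4% of all shorter peaks had this order, and 6 of the 12 (50%) were lower in both batches, where 22.4% of all shorter peaks were. On chromosome 11, 3 of 7 were lower, with a median of 0.02, and again none was under 0.05. Over all peaks of the interval the median was -0.09 on chromosome 3 and -0.05 on chromosome 11. Whether long and shorter peaks differed was not tested.

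The zero of the scale depended on the normalization. Over all long peaks the median log2 fold change was -0.0026 with loess, 0.16 with TMM, 0.05 with library size alone and 0.16 with DESeq2. The 32 long peaks of chromosome 13 had medians of -0.13, -0.24 and -0.12 with the last 3, and 23, 26 and 23 of them were lower in mandible. Measured from the median of all long peaks under the same scaling, their median was -0.29 with each of the 4 scalings. TMM, library size and DESeq2 apply a constant factor per library, which moves all peaks almost alike. This distance could therefore hardly differ among those 3, and only loess could give another. The same distance was -0.39 with loess and -0.34 with the other 3 for the long peaks of chromosome 3, and -0.09 with loess and -0.13 with the other 3 for those of chromosome 11. The distance of the chromosome 13 peaks was -0.18 without femur replicate 1 and -0.44 without femur replicate 2, while that of the chromosome 3 peaks was -0.35 and -0.42.

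**Figure D4:**
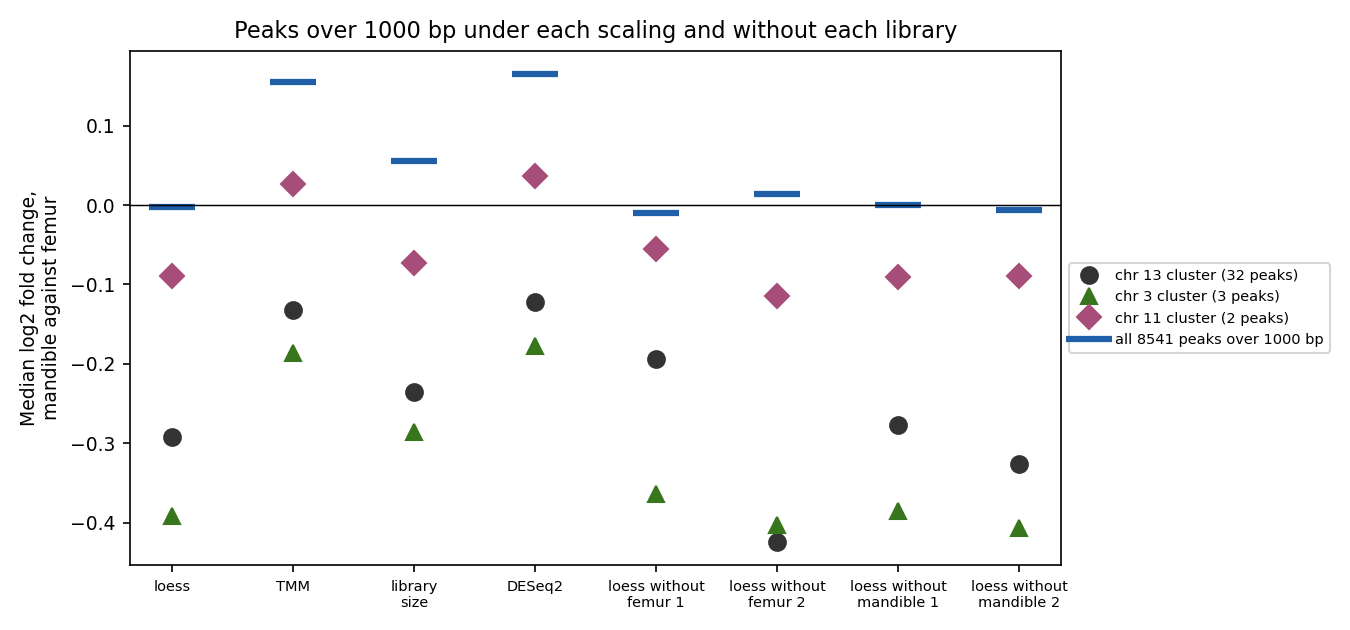
Median difference between the sites (mandible against femur, log2) of the long peaks of each interval under 4 scalings and, with loess, without each library in turn. Blue bars mark the median of all 8541 long peaks under the same setting. The chromosome 13 and chromosome 3 medians lie below the bar in each of the 8 settings, and the chromosome 11 medians lie below it but change sign with TMM and DESeq2. TMM, library size and DESeq2 move the bar and the medians almost alike, so their distance hardly differs among these scalings.

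With batch added as a replicate block, the median of the 32 long peaks of chromosome 13 was -0.28, and 29 were lower in mandible. In this fit 6 of the 32 were lower at an adjusted edgeR p under 0.05, in place of 1, where 0.117% of all long peaks were. These 6 were among 10 such long peaks in the genome. As the interval was chosen on the contrast of the sites in these libraries, these counts are not evidence of its direction. No peak of chromosome 3 or chromosome 11 passed in the fit with the block.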

How the data were processed

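Per the study's methods, the authors used Trimmomatic for trimming and Bowtie2 for alignment to GRCm39, dropped duplicates and reads with a mapping quality under 20, and joined with bedtools the Genrich peaks called on the duplicates of each site. The deposited values are raw read counts per merged peak for 4 libraries, which the authors made with featureCounts 2.0.6, counting both reads of a pair singly. Long peaks and close neighbours thus depend on the merging. No shift for the transposase is stated.

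The tools the study names were used, edgeR 4.0.16 with limma 3.58.1 in R 4.3.3. Offsets came from a loess curve (span 0.3) of log counts, at a pseudocount of 0.5, against mean log CPM, and glmQLFit and glmQLFTest had the skeletal site as the only term. The default filter removed 0 of 57090 peaks. P-values were adjusted by Benjamini-Hochberg over all peaks. The dispersion common to all peaks was 0.0291, with 15.7 prior degrees of freedom. The fit was tested on simulated data. Total counts were 27464565 to 75294068 per library, so counting error in the summed counts was small. Levels per kb divide CPM by peak length.

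By the series' text, the femur and mandible libraries of 1 batch came from the same pool of mice, and the labels give them the same number, so the numbers pair them. Their deviations had a correlation of -0.167. The members and lists were chosen with earlier results of these data known. The rule for named peaks took all long peaks of chromosomes 3 and 11. For chromosome 13 it took the 10 long peaks with the highest counts, the 5 with the largest change of the same sign in both batches and those higher in mandible, the 5 shorter peaks with the highest counts, and the peaks nearest to each limit.

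The alternatives were TMM, library size alone, DESeq2 1.42.0, 2 count filters, the replicate block, length limits of 750 and 1500 bp and each library left out. Distances from the median of all long peaks and chromosome 3 long peaks alone were added after seeing the data. Histone genes, promoters (RefSeq) and transcripts (GENCODE) were of GRCm38.p6 and were used for names, order and sequence only. Peaks at gene starts, genes of the histone pathway, cell type markers and the alternatives on distance to a start were planned and not run, since no GRCm39 gene models were used here.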

Additional observations from a re-analysis of the deposited data

How the results depend on the processing

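The median of the long peaks of chromosome 13 was -0.29 and stayed below 0 in each alternative. It was smallest in size with DESeq2 (-0.12) and TMM (-0.13), and was -0.24 with library size alone. It ranged from -0.42 to -0.19 with 1 library left out and was -0.26 and -0.32 with length limits of 750 and 1500 bp. The median of the shorter peaks of chromosome 13 was 0.070 and turned to -0.052 with library size alone. It was 0.015 to 0.19 with 1 library left out. With library size alone the median was -0.16 over all shorter peaks and -0.12 over all peaks. Over all peaks of chromosome 3 the median was -0.092, against -0.22 with library size alone and -0.39 with long peaks alone, and -0.23 to -0.10 with 1 library left out. Over all peaks of chromosome 11 it was -0.048, against 0.023 with TMM, -0.078 with library size alone and 0.033 with DESeq2, and -0.071 to -0.0085 with 1 library left out. The long peaks of chromosome 11 reversed sign, Peak_8397 to 0.051 with TMM and 0.061 with DESeq2 and Peak_8401 to 0.0025 and 0.012. The 21 peaks of the 3 intervals (15.8% of 133) lower in mandible at an unadjusted p under 0.05 became 11 with TMM and 8 with DESeq2. In the main fit 1.10% of all peaks were lower at this threshold, and their shares in the alternatives are not given here. Over all peaks the calls at an adjusted p under 0.05 went from 4 to 18 with library size alone, 12 with DESeq2 and 57 with the replicate block, and to 7 to 2688 with 1 library left out. The 2688 came without femur replicate 1, which leaves femur replicate 2 alone for its site, assumed to vary like mandible. Peak_13956 was no longer past the threshold with TMM (-0.38), library size alone (-0.48), DESeq2 (-0.37) or without mandible replicate 2 (-0.59), and Peak_34978 passed it without femur replicate 1 (-0.36). Among the named peaks of chromosome 13, 21 of 230 combinations of peak and alternative changed sign. With the replicate block the medians of the 3 intervals kept their direction. The causes of these changes were not tested. With 2 pools per site, the spread within a site limits each value more than counting error does.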
